A study of Mus musculus with 4 samples.

Results

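Heat shock proteins and chaperones were examined by RNA-seq in *Kdm3b*+/- mice, in tissue enriched for granule cells (GCE) that was dissected from the cerebellar vermis. The set held 45 genes, taken from a list of chaperone genes and matched by their NCBI mouse gene numbers, of the 24532 gene identifiers listed in each library. The libraries came from 2 wild-type (WT) mice and 2 *Kdm3b*+/- mice, 1 library per mouse, which were adult male littermates. The *Kdm3b*+/- mice carried a pGT0lxf gene trap vector in an intron of 1 *Kdm3b* allele in all their cells, derived from 1 targeted ES cell line (YTC406). The line was backcrossed to C57Bl/6N and later crossed several times to C57Bl/6J, and the WT littermates carried no vector. *Kdm3b* encodes a histone demethylase that acts on H3K9, and the comparison asks which transcripts differ when 1 of its copies is trapped.

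Chaperones bind proteins that are not yet folded or have lost their fold, and help them reach or regain it. Hsp70 proteins hold and release short stretches of such proteins, J-domain proteins bring clients to Hsp70 and start its ATP cycle, and Hsp90 takes over kinases, receptors and other clients late in folding. Small heat shock proteins keep unfolded proteins from aggregating, the ring-shaped chaperonins enclose a client in a chamber, and a separate set with disulfide isomerases and lectins works in the endoplasmic reticulum (ER). Part of the set is made at all times, and part is induced by heat shock factors or by the unfolded protein response of the ER.

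Some promoters of the set hold the DNA elements known from both responses, and the sequences below show these elements and where they lie. Sequences of 250 bases before to 50 after the start of a gene were taken from RefSeq (GRCm38) and matched 37 of the 45 genes. A heat shock element, the site of heat shock factors, was searched as 3 GAA units in alternating orientation with 2 letters between neighbours, on both strands. It was found in 4 of the 37 genes, *Hsph1*, *Dnajb6*, *Hspd1* and *Hspe1*, and in 0.662% of 27025 genes. A looser element of 2 units, GAANNTTC or TTCNNGAA, which every match of 3 units also contains, was found in 14 of the 37 genes, among them 7 of the 8 inducible genes with a sequence and none of the 7 ER genes, and in 17.0% of all genes. The ER stress element, CCAAT and CCACG with 9 letters between them, was found in 5 of the 7 ER genes, *Hspa5*, *Hsp90b1*, *Calr*, *Canx* and *Pdia6*, in none of the other groups, and in 0.137% of all genes. A match is a description of the letters, and binding was not measured.

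*Hspd1* and *Hspe1* encode the 2 parts of the mitochondrial chaperonin and lie head to head on chromosome 1, with 215 bases between their starts. Both genes have the same element, which is 18 bases long (capitals) and lies 127 bases from the start of *Hspd1*. The *Dnajb6* element is shown beside it. Since both elements fall in an annotated exon of some transcript, only 30 bases are given.
Hspe1, chr1:55088053-55088082, plus strand: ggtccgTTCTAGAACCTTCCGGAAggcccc
Dnajb6, chr5:29735844-29735873, plus strand: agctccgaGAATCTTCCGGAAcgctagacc

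*Hspa1a* and *Hspa1b*, the stress-induced Hsp70 genes, are neighbours on chromosome 17. The 150 bases before their starts are shown because they differ at a single position, with 149 of 150 bases identical, and the element of 2 units is in capitals.
Hspa1a, chr17:34972157-34972306, minus strand: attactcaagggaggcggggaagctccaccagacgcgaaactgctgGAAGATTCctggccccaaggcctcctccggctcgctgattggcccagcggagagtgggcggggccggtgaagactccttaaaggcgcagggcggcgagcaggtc
Hspa1b, chr17:34959239-34959388, minus strand: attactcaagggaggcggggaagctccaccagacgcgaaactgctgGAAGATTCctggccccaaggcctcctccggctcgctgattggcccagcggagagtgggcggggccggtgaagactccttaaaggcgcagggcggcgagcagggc

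The ER stress elements of 4 ER genes are in capitals in the next stretches, which leave out annotated exons except for *Hspa5*, where 30 bases around the element are given. *Hsp90b1* holds a pair of elements, on opposite strands.
Hspa5, chr2:34772020-34772049, plus strand: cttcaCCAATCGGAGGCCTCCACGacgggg
Hsp90b1, chr10:86705510-86705669, minus strand: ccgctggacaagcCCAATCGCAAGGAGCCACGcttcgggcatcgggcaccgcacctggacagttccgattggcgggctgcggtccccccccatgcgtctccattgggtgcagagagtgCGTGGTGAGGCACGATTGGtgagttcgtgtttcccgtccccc
Canx, chr11:50325674-50325898, minus strand: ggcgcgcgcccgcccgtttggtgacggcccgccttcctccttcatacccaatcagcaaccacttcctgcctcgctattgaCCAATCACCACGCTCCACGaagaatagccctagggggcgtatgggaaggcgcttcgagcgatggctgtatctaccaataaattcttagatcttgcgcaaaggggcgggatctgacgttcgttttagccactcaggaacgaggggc
Pdia6, chr12:17266364-17266544, plus strand: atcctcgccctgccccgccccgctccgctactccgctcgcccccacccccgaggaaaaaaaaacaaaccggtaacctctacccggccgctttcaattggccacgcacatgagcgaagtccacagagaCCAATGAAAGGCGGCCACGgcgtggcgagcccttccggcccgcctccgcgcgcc

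The libraries held 4.919 and 5.743 Gb of aligned bases in WT mice against 5.694 and 6.691 Gb in *Kdm3b*+/- mice. *Kdm3b* itself was at 9.10 and 11 TPM (transcript abundance scaled to length and to the same total in each library) in WT mice against 8.30 and 7.90 TPM in *Kdm3b*+/- mice. Its log2 fold change was -0.27 ± 0.17 (SE) and did not pass the test (adjusted p = 0.424). The authors reported less KDM3B protein in the vermis and flocculus of *Kdm3b*+/- mice, a measure other than RNA. The granule cell marker *Gabra6* was at 984 and 1097 TPM in WT mice against 1200 and 1032 TPM in *Kdm3b*+/- mice. With it, the 7 granule cell markers summed to 3346 and 4102 TPM in WT mice against 3542 and 3456 TPM in *Kdm3b*+/- mice, with overlap. Among them 4 were higher and 3 lower on average, such as *Zic1* at a log2 fold change of 0.58 and *Cbln3* at -0.43. *Mbp*, a myelin gene of oligodendrocytes, was at between 10521 and 12577 TPM. The 6 markers of Purkinje cells summed to 1435 TPM in WT mouse 1 and to between 557 and 788 TPM in the other mice. In such tissue, fewer cells of a type and less RNA per cell cannot be told apart.

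All 45 genes were expressed with a mean of at least 1 TPM, and together they made up between 1.03% and 1.08% of all TPM. Their levels, which are scaled to transcript length and can be set side by side, ran from 2.02 TPM for *Hspa12b* to 2786 TPM for *Hspa8*, the constitutive Hsp70 of the cytosol. *Hspa8* alone made up between 24.5% and 27.6% of the set. It was followed by *Hsp90ab1*, *Hsp90aa1*, *Cryab* and *Dnajb6*, at means of 970, 595, 594 and 420 TPM over the 4 libraries. *Hsp90aa1* and *Cryab* had nearly the same mean, but *Hsp90aa1* was above *Cryab* in both WT mice and below it in both *Kdm3b*+/- mice. The genes lie on 16 chromosomes and none of them on chromosome 18, where *Kdm3b* lies. In the coordinates of the deposited tables, *Cryab* spans chr9:50751325-50756635 on the plus strand, *Hsp90aa1* chr12:110691036-110696395 on the minus strand, *Hspa2* chr12:76404176-76406936 on the plus strand, *Dnajb5* chr4:42953094-42958732 on the plus strand and *Dnajc5* chr2:181520485-181552880 on the plus strand.

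None of the 45 genes was DEX between the genotypes (limma, with an adjusted p under 0.05 at a fold change above 1.2), against 63 of the 13652 genes tested, or 0.461%. The authors used another test, DESeq2, on the same libraries and reported more DEX genes than limma found here. An unadjusted p under 0.05 was found for 7 of them, or 15.6%, and for 17.0% of all tested genes. *Cryab*, *Hspe1* and *Hsp90aa1* were higher in *Kdm3b*+/- mice among these 7, and *Dnajb5*, *Hspa1b*, *Hspa2* and *Dnajc5* were lower, while 5.47% of all tested genes were higher and 11.5% lower at this p. The libraries of the genotypes did not overlap for 26 of the 45 genes (57.8%), and for 51.3% of all tested genes. Of these, both *Kdm3b*+/- mice were above both WT mice for 12 genes (26.7%, against 19.2% of all genes) and below them for 14 genes (31.1%, against 32.0%). The share with an unadjusted p under 0.05 and the share without overlap thus lay near those of all genes. The median log2 fold change of the set was 0.003, with 23 genes higher and 22 lower on average, and that of all tested genes was -0.07. The log2 fold changes ran from -0.61 to 0.61, and their SD of 0.268 compared with 0.317 over all genes.

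**Figure D1:**
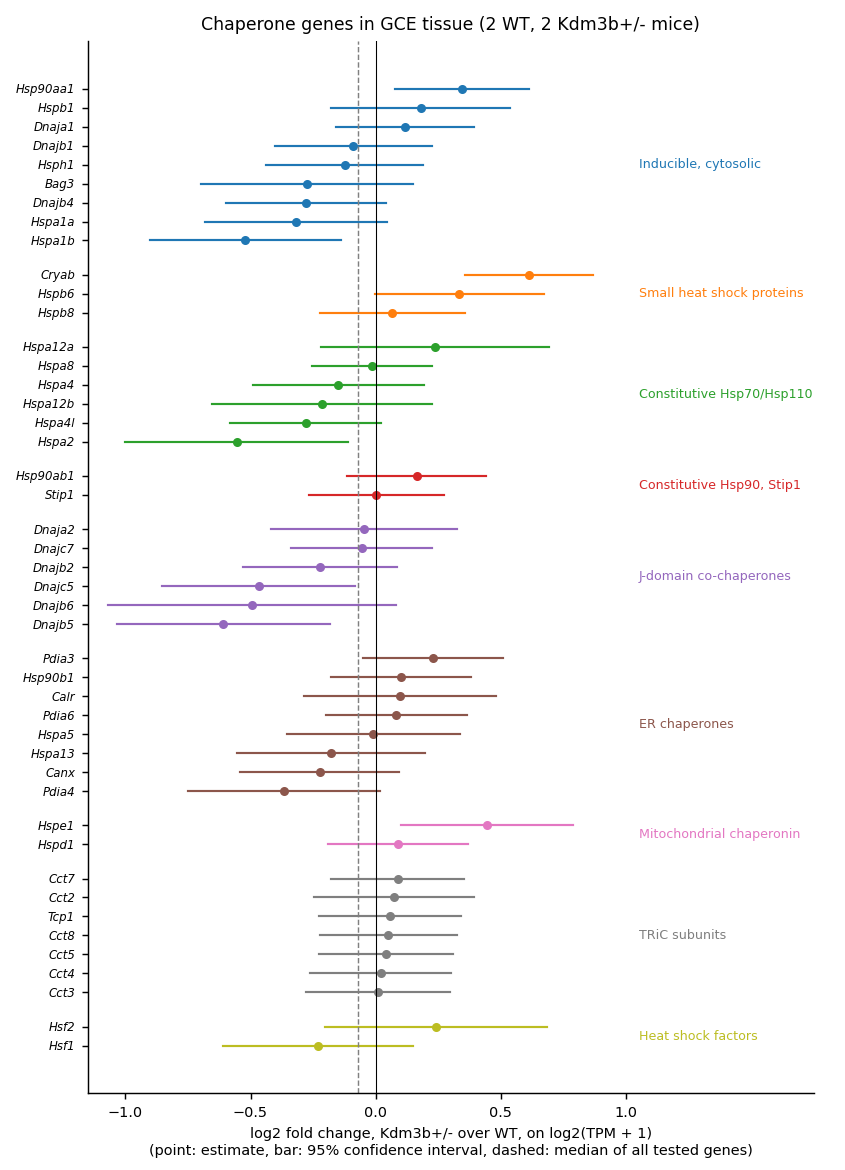
Log2 fold change of each of the 45 genes (*Kdm3b*+/- over WT, on the log2(TPM + 1) scale), ordered within role groups, with points for the estimates of limma and bars for their 95% confidence intervals (2 mice per group). *Cryab* at 0.61 and *Dnajb5* at -0.61 lie at the ends, all 7 TRiC subunits lie close to 0, and the dashed line marks the median of all tested genes, -0.07.

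**Figure D2:**
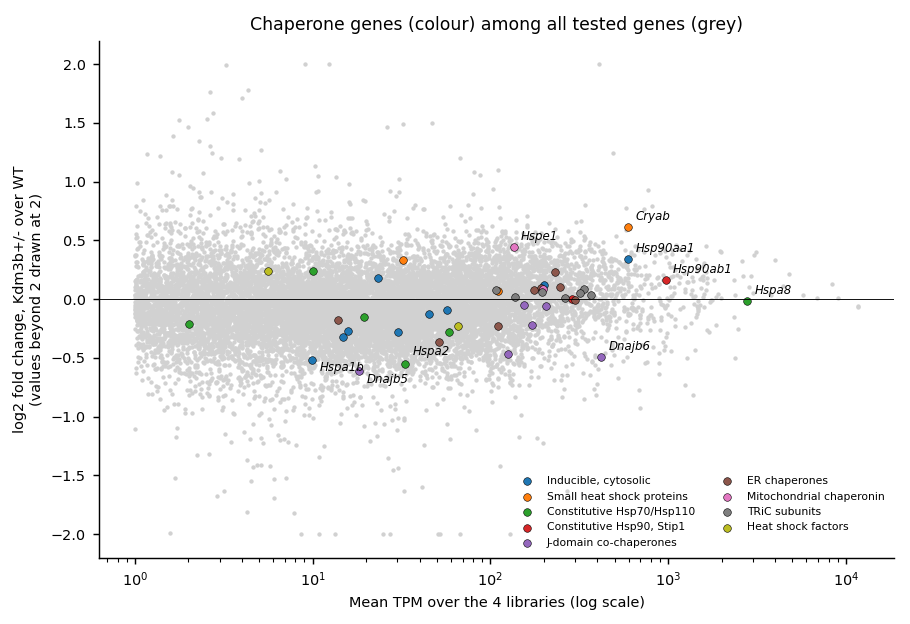
Log2 fold change (*Kdm3b*+/- over WT) against the mean TPM over the 4 libraries (log axis) for all 13652 tested genes in grey and the 45 chaperone genes in colour by role group. The chaperone genes lie within the grey cloud, and values beyond 2 in either direction are drawn at 2.

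The small heat shock proteins *Cryab*, *Hspb6* and *Hspb8* were higher in *Kdm3b*+/- mice on average, and none of them was DEX. The groups overlapped for *Hspb1*, another small heat shock protein of the set that is given with the inducible genes, at 20.8 and 22.7 TPM in WT mice against 27.2 and 22.6 TPM in *Kdm3b*+/- mice (log2 fold change 0.18, adjusted p = 0.584). *Cryab*, or alpha B-crystallin, a small heat shock protein of lens, muscle and glia, was at 476 and 464 TPM in WT mice against 713 and 725 TPM in *Kdm3b*+/- mice. The groups did not overlap, and the distance between them was far larger than that within them. Its fold change was 1.53 and its log2 fold change 0.61 ± 0.11 (SE), with adjusted p = 0.0641. *Cryab* became DEX with a minimum of 5 TPM (adjusted p = 0.0473) and with a robust fit (adjusted p = 0.0416), and over all alternatives its adjusted p ran from 0.0148 to 0.272, the latter without a filter on low genes. *Hspb6*, a small heat shock protein abundant in muscle, was at 30.03 and 26.6 TPM in WT mice against 37.8 and 34.1 TPM in *Kdm3b*+/- mice, without overlap (log2 fold change 0.33 ± 0.15, adjusted p = 0.297). *Hspb8*, which works with Bag3 in selective autophagy, differed least, at a log2 fold change of 0.07 (adjusted p = 0.817). The summed TPM of the group was 616 and 597 in WT mice against 866 and 871 in *Kdm3b*+/- mice, and *Cryab* made up most of it. An exact permutation test of 2 mice against 2 cannot give a p below 0.333, so the sums were not tested.

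Markers of glia, which express *Cryab*, moved in different directions beside it. The 7 oligodendrocyte markers summed to 17533 and 16030 TPM in WT mice against 14877 and 17780 TPM in *Kdm3b*+/- mice, so the sums overlapped. Within this list *Mobp*, a myelin protein, was DEX and fell (log2 fold change -0.93, adjusted p = 0.0133), while *Opalin* was higher by 0.69 on the log2 scale (adjusted p = 0.128). The 7 markers of astrocytes and Bergmann glia summed to between 876 and 1132 TPM over the libraries, with overlap, and 1 of them, the water channel *Aqp4*, was DEX and rose (log2 fold change 1.102, adjusted p = 0.0329), while 6 were lower on average. The part of these markers in the *Cryab* value was not tested.

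The inducible chaperones of the cytosol differed in direction. Of 9 genes, 3 were higher and 6 lower in *Kdm3b*+/- mice, and the median of their log2 fold changes was -0.12. *Hspa1a* was at 15.0 and 18.1 TPM in WT mice against 13.1 and 12.9 TPM in *Kdm3b*+/- mice (log2 fold change -0.32 ± 0.16, adjusted p = 0.347). *Hspa1b* was at 10.6 and 13.2 TPM in WT mice against 7.998 and 7.92 TPM in *Kdm3b*+/- mice (log2 fold change -0.52 ± 0.17, adjusted p = 0.20). Both WT mice were above both *Kdm3b*+/- mice for each gene, and the *Kdm3b*+/- mice were nearly equal. The coding sequences of this pair are 99.43% identical, and 48.6% of the 100-base windows of *Hspa1a* and 49.9% of those of *Hspa1b* also occur in transcripts of other genes, so the split of the reads between them is uncertain. Summed as 1 gene, they were at 25.6 and 31.4 TPM in WT mice against 21.1 and 20.9 TPM in *Kdm3b*+/- mice, with a log2 fold change of -0.42 ± 0.16 (adjusted p = 0.246). This sum was chosen after seeing the data.

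*Hsp90aa1*, the inducible cytosolic Hsp90, was higher on average. It was at 552 and 497 TPM in WT mice against 672 and 658 TPM in *Kdm3b*+/- mice, without overlap, for a log2 fold change of 0.34 ± 0.12 (adjusted p = 0.218). Because it is far more abundant than the rest of the group, the summed TPM of the 9 genes was higher in *Kdm3b*+/- mice, at 1072 and 1050 against 943 and 907, although most of the genes were lower. The other 6 genes were *Hsph1*, a nucleotide exchange factor of Hsp70, the J-domain genes *Dnaja1*, *Dnajb1* and *Dnajb4*, the small heat shock protein *Hspb1* and the co-chaperone *Bag3*. Their log2 fold changes ran from -0.28 for *Dnajb4* to 0.18 for *Hspb1*, and their adjusted p from 0.347 to 0.773.

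WT mouse 2 had the highest level of 6 of the 9 inducible genes, and WT mouse 1 of none. Over the set, WT mouse 2 was highest for 15 of 45 genes (33.3%), and over all tested genes for 42.4%. Immediate early genes are induced by neurons within minutes of activity or handling. Of those tested, *Fos*, *Junb*, *Egr1*, *Nr4a1*, *Ier2* and *Dusp1* were also highest in WT mouse 2. *Jun* and *Atf3* were highest in *Kdm3b*+/- mouse 1, *Arc* in *Kdm3b*+/- mouse 2 and *Btg2* in WT mouse 1. *Fos* was at 18.1 and 40.1 TPM in WT mice against 17.3 and 12.5 TPM in *Kdm3b*+/- mice. *Egr1* was at 78.8 and 124 TPM in WT mice against 45.02 and 57.1 TPM in *Kdm3b*+/- mice. Of the 10 immediate early genes tested, 8 were lower on average, and 4 of them (*Egr1*, *Dusp1*, *Junb* and *Fos*) had an unadjusted p under 0.05, with adjusted p from 0.114 to 0.246. Over all tested genes, 39.6% were higher on average, and 11.5% were lower at this p. Without WT mouse 2, the log2 fold changes of *Hspa1a* and *Hspa1b* were -0.19 and -0.38. The part of this mouse or of immediate early genes in these values was not tested.

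**Figure D3:**
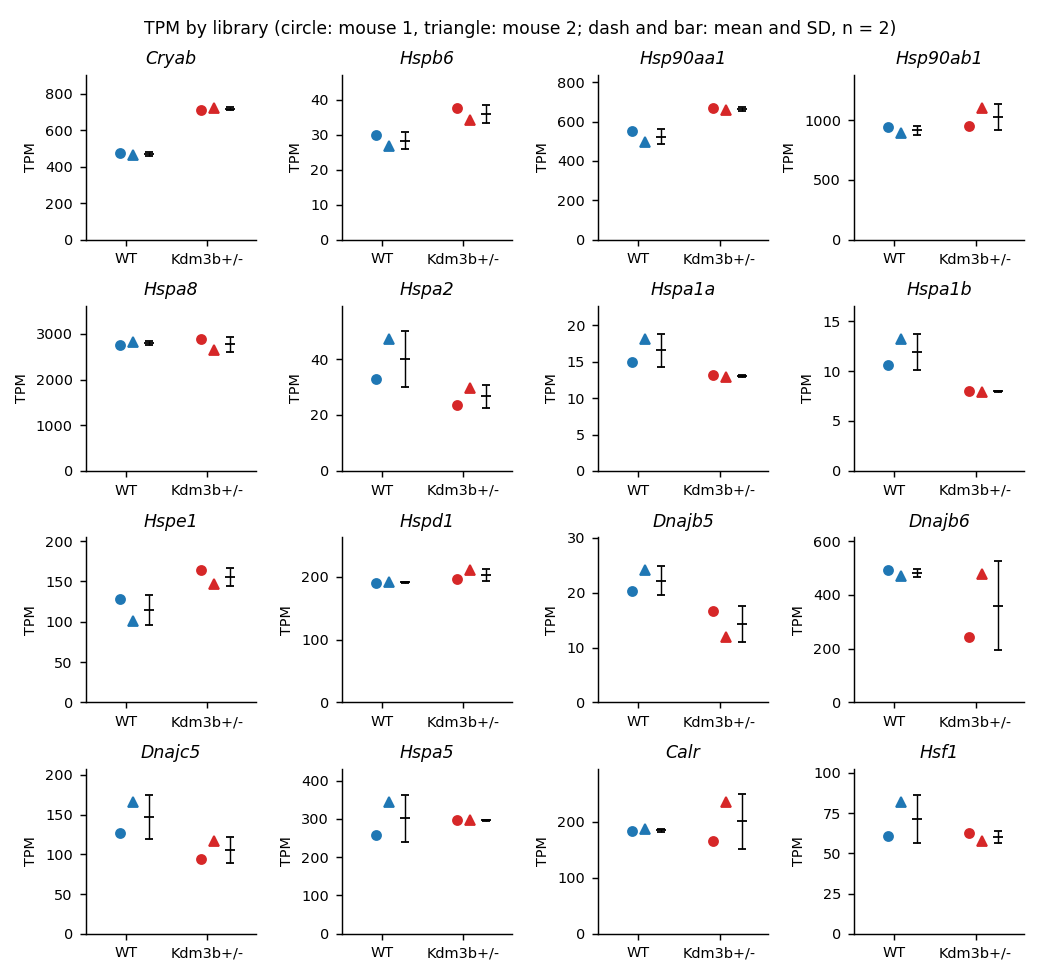
TPM of 16 chaperone genes in each library, with circles for mouse 1, triangles for mouse 2, blue for WT and red for *Kdm3b*+/-, and the dash and bar beside them for the mean and SD (n = 2). The groups overlap for *Hspa8*, which is level, and for *Dnajb6*, *Hspa5*, *Calr* and *Hsf1*. They are apart for the other genes drawn, as they are for 51.3% of all tested genes. The low *Dnajb6* point at 244 TPM is *Kdm3b*+/- mouse 1.

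Constitutive Hsp70 genes were mostly lower, and their summed TPM, most of it from *Hspa8*, was level. By comparison, 39.6% of all tested genes were higher on average. *Hspa8* was at 2767 and 2830 TPM in WT mice against 2892 and 2657 TPM in *Kdm3b*+/- mice. The groups overlapped, and the log2 fold change was -0.01 with a 95% confidence interval from -0.25 to 0.23. *Hspa2*, an Hsp70 known best from male germ cells, was at 32.8 and 47.2 TPM in WT mice against 23.7 and 29.6 TPM in *Kdm3b*+/- mice. The groups did not overlap, but the WT mice were farther apart than the nearest mice of the groups (log2 fold change -0.56 ± 0.20, adjusted p = 0.228), and without WT mouse 2 the log2 fold change was -0.30. Of the 6 genes of the group 5 were lower on average (*Hspa8* turned slightly higher under median-ratio scaling), and the Hsp110 genes *Hspa4* and *Hspa4l*, which reset the ATP cycle of Hsp70, had log2 fold changes of -0.15 and -0.28 (adjusted p = 0.638 and 0.321). *Hspa12a*, a distant relative, was at 11.2 and 7.32 TPM in WT mice against 10.7 and 11.01 TPM in *Kdm3b*+/- mice, with overlap.

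The constitutive Hsp90 of the cytosol, *Hsp90ab1*, was at 941 and 888 TPM in WT mice against 947 and 1105 TPM in *Kdm3b*+/- mice. The groups touched without overlap, at a log2 fold change of 0.16 ± 0.12 (adjusted p = 0.515). *Hsp90aa1* made up 0.587 and 0.559 of the level of *Hsp90ab1* in WT mice against 0.709 and 0.596 in *Kdm3b*+/- mice. *Stip1*, which hands clients from Hsp70 to Hsp90, had the log2 fold change closest to 0 of the 45 genes, with a log2 fold change of 0.003, all libraries between 284 and 292 TPM, and a 95% confidence interval of the log2 fold change from -0.27 to 0.27.

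The 6 J-domain genes outside the inducible group were lower on average in *Kdm3b*+/- mice, and the median of their log2 fold changes was -0.35 against -0.07 for all genes, but *Dnaja2* and *Dnajc7* turned slightly higher under median-ratio scaling and with FPKM. Not every J-domain gene was lower, since *Dnaja1* of the inducible group and *Dnajb11*, which works in the ER, were higher without overlap, at log2 fold changes of 0.12 and 0.26 (adjusted p = 0.644 and 0.353). The other J-domain genes outside the 6 (*Dnajb1*, *Dnajb4*, *Dnaja3*, *Dnaja4*, *Dnajc6*, *Dnajb9*, *Dnajc3* and *Dnajc10*) were lower on average. None of the 6 was DEX, and 2 had an unadjusted p under 0.05 and were lower, against 11.5% of all tested genes. *Dnajb5* was at 20.3 and 24.1 TPM in WT mice against 16.7 and 11.99 TPM in *Kdm3b*+/- mice, without overlap, at a fold change of 0.655 and a log2 fold change of -0.61 ± 0.19 (adjusted p = 0.186), which was -0.39 without *Kdm3b*+/- mouse 2 and -0.83 without *Kdm3b*+/- mouse 1. *Dnajc5*, the cysteine string protein that guards the release machinery of synaptic vesicles, was at 127 and 166 TPM in WT mice against 94.1 and 117 TPM in *Kdm3b*+/- mice. These groups did not overlap either, but their spread was wide (log2 fold change -0.47 ± 0.17, adjusted p = 0.235), and without WT mouse 2 the value was -0.28.

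*Dnajb6*, which keeps polyglutamine and similar proteins from aggregating, was low in a single library. It was at 491 and 470 TPM in WT mice against 244 and 477 TPM in *Kdm3b*+/- mice, so *Kdm3b*+/- mouse 2 lay between the WT mice. Its log2 fold change was -0.49 ± 0.25 (adjusted p = 0.351). Without *Kdm3b*+/- mouse 1 it was -0.01, and without *Kdm3b*+/- mouse 2 it was -0.98, which limma called DEX (adjusted p = 0.00233) on the assumption that the lone mouse varies like the WT mice. In its transcript, 31.0% of the 100-base windows also occur in other genes, among them pseudogenes. The summed TPM of the J-domain group followed *Dnajb6*, at 1198 and 1207 in WT mice against 828 and 1161 in *Kdm3b*+/- mice. *Dnajb2*, *Dnaja2* and *Dnajc7* had log2 fold changes of -0.22, -0.05 and -0.06 (adjusted p = 0.424, 0.903 and 0.844).

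**Figure D4:**
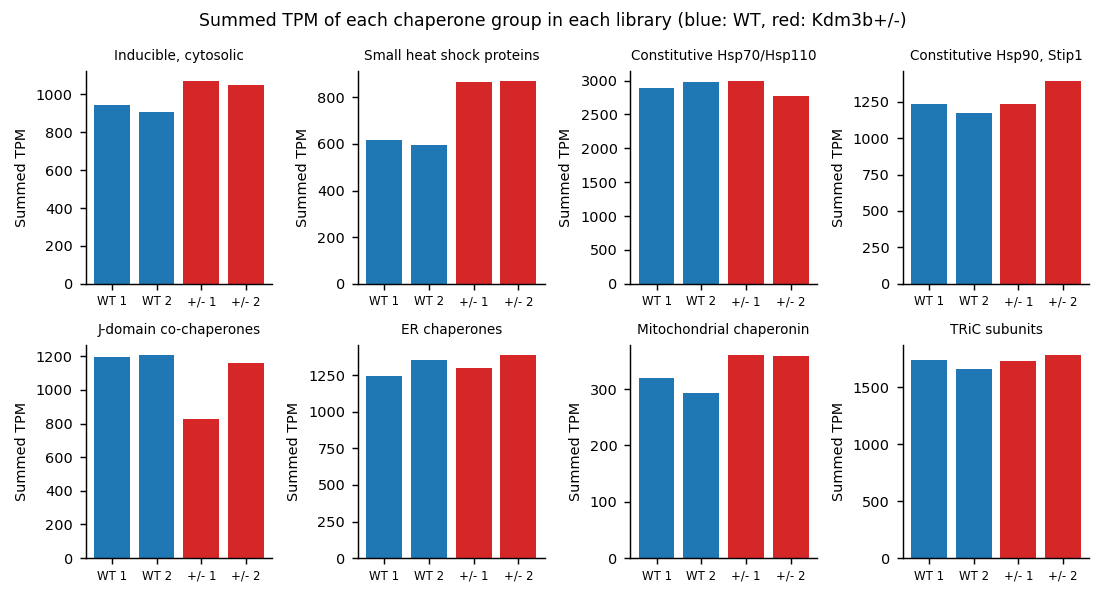
Summed TPM of 8 chaperone groups in each library, with blue bars for the WT mice and red bars for the *Kdm3b*+/- mice. Both red bars stand above both blue bars for the small heat shock proteins (866 and 871 against 616 and 597), the inducible genes, the mitochondrial chaperonin and *Hsp90ab1* with *Stip1*. Both stand below for the J-domain genes (828 and 1161 against 1198 and 1207), and the constitutive Hsp70, ER and TRiC sums overlap.

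Among the ER chaperones 4 of 8 genes were higher and 4 lower (*Hspa5* turned slightly higher under median-ratio scaling), none with an unadjusted p under 0.05, although the groups did not overlap for 6 of them, against 51.3% of all tested genes. *Hspa5*, or BiP, the Hsp70 of the ER and the usual readout of the unfolded protein response, was at 258 and 345 TPM in WT mice against 297 and 296 TPM in *Kdm3b*+/- mice. Both *Kdm3b*+/- mice lay between the WT mice, and the log2 fold change was -0.01 with a 95% confidence interval from -0.36 to 0.34. *Hsp90b1*, the Hsp90 of the ER, was at 235 and 242 TPM in WT mice against 245 and 266 TPM in *Kdm3b*+/- mice (log2 fold change 0.10, adjusted p = 0.705). *Calr*, a lectin chaperone that holds calcium, was at 183 and 187 TPM in WT mice against 166 and 235 TPM in *Kdm3b*+/- mice, so that its WT mice lay between the *Kdm3b*+/- mice. The membrane-bound lectin *Canx* and the disulfide isomerase *Pdia4* were lower, at log2 fold changes of -0.22 and -0.37 (adjusted p = 0.434 and 0.311), which went to -0.10 for *Canx* without WT mouse 2 and to -0.15 for *Pdia4* without *Kdm3b*+/- mouse 1, while the isomerase *Pdia3*, which works with both lectins, was higher at 0.23 (adjusted p = 0.371). Of the 5 genes whose promoters hold the ER stress element, *Hspa5* and *Canx* were lower and *Hsp90b1*, *Calr* and *Pdia6* higher. The summed TPM was 1246 and 1355 in WT mice against 1298 and 1388 in *Kdm3b*+/- mice, with overlap.

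A list of 29 other genes of ER folding and the unfolded protein response held no DEX gene by limma either, and 4 had an unadjusted p under 0.05, against 17.0% of all tested genes. *Manf*, a secreted ER stress protein, was higher (39.9 and 37.7 TPM in the WT mice, 64.5 and 51.1 TPM in the *Kdm3b*+/- mice, log2 fold change 0.55, adjusted p = 0.169). *Hyou1*, *Dnajc10* and *Ppp1r15a* were lower, at log2 fold changes of -0.54, -0.36 and -0.37 (adjusted p from 0.237 to 0.270). The median of the list was -0.12.

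Both genes of the mitochondrial chaperonin were higher in *Kdm3b*+/- mice without overlap. *Hspe1*, the lid of the chamber, was at 128 and 102 TPM in WT mice against 164 and 147 TPM in *Kdm3b*+/- mice, at a fold change of 1.36 and a log2 fold change of 0.44 ± 0.15 (adjusted p = 0.216), which was 0.28 without WT mouse 2. *Hspd1*, the ring, was at 191 and 192 TPM in WT mice against 196 and 211 TPM in *Kdm3b*+/- mice (log2 fold change 0.09, adjusted p = 0.744). The level of *Hspe1* relative to *Hspd1* was 0.671 and 0.530 in WT mice against 0.834 and 0.700 in *Kdm3b*+/- mice. For this ratio, which was not tested, the WT mice were farther apart than the nearest mice of the groups. The *Hspe1* transcript is short, at 774 bases, and after correction for length and GC content its log2 fold change was 0.17 (adjusted p = 0.463).

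TRiC, the chaperonin of the cytosol that folds actin and tubulin, had the narrowest range of log2 fold changes among the groups with more than 2 genes. The 7 subunits in the set were higher on average, by log2 fold changes from 0.008 to 0.09, each within its error (adjusted p from 0.734 to 0.982), but *Cct3* and *Cct5* turned slightly lower under quantile normalization and after correction for length and GC content. With 1 library left out, *Cct2*, *Cct3*, *Cct5*, *Cct8* and *Tcp1* also turned slightly lower in at least 1 case. *Tcp1*, the subunit that gave the complex its name, was at 201 and 184 TPM in WT mice against 201 and 200 TPM in *Kdm3b*+/- mice. The 95% confidence intervals of the log2 fold changes reached at most from -0.28 to 0.39. Levels of the subunits ranged from 108 TPM for *Cct2* to 369 TPM for *Cct5*, although each ring holds 1 copy of each. *Cct6a*, a subunit outside the set, was lower on average, at 263 and 265 TPM in WT mice against 237 and 269 TPM in *Kdm3b*+/- mice (log2 fold change -0.06, adjusted p = 0.826), with overlap.

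A list of 28 other chaperones of the cytosol and mitochondria held no DEX gene by limma, and 5 had an unadjusted p under 0.05, against 17.0% of all tested genes. The J-domain gene *Dnaja4* and the myosin chaperone *Unc45a* were lower, at log2 fold changes of -0.46 and -0.46 (adjusted p = 0.180 and 0.293). The prefoldin subunits *Pfdn1*, *Pfdn2* and *Pfdn5*, which carry actin and tubulin to TRiC, were higher, at 0.38, 0.35 and 0.36 (adjusted p = 0.237, 0.237 and 0.250). The prefoldin subunits were set apart within the list after their values were seen. After correction for length and GC content their log2 fold changes were 0.19, 0.26 and 0.17, and the median of all 6 prefoldin subunits, whose transcripts are short (median 1085.5 bases), went from 0.35 to 0.15.

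For the heat shock factors, which drive the inducible genes, no difference passed the test. *Hsf1*, the factor that responds to heat, was at 60.9 and 82.1 TPM in WT mice against 62.8 and 57.6 TPM in *Kdm3b*+/- mice, with WT mouse 2 apart from the others (log2 fold change -0.23 ± 0.17, adjusted p = 0.504). *Hsf2*, known from development, was low, at 5.96 and 4.21 TPM in WT mice against 6.56 and 5.69 TPM in *Kdm3b*+/- mice (log2 fold change 0.24 ± 0.20, adjusted p = 0.550). Both pairs of groups overlapped. The RNA level does not show the activity of these factors, which are switched on as proteins.

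Fold change also moved with transcript length, in the set as in all genes. The 8 chaperone genes with transcripts under 2000 bases were all higher on average. Their median log2 fold change was 0.13, and the median of all 3720 such genes was 0.09. Among these 8, *Cct3* and *Cct5* turned slightly lower under quantile normalization and after correction for length and GC content. *Cct2*, *Cct3* and *Cct5* also did so in at least 1 case with 1 library left out. Of the 37 chaperone genes with longer transcripts 15 were higher, with a median of -0.06, and the median of all 9184 longer genes was -0.13. Spearman's rho between length and fold change was -0.40 over the 45 genes and -0.27 over 12904 genes, which share the same 4 libraries and are not independent replicates. *Cryab*, *Hspe1*, *Hspb1* and *Hspb6* have the 4 shortest transcripts, from 774 to 1363 bases. After correction of each library for length and GC content, *Cryab* kept a log2 fold change of 0.43 (adjusted p = 0.11), and *Hspb1* went from 0.18 to -0.05. Lower genes moved too, *Hspa1a* from -0.32 to -0.14 and *Hspa1b* from -0.52 to -0.36. In contrast, *Dnajb4* went from -0.28 to -0.35 and *Hspa4l* from -0.28 to -0.38. The median of the inducible genes went from -0.12 to -0.05, and that of the J-domain group from -0.35 to -0.23.

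**Figure D5:**
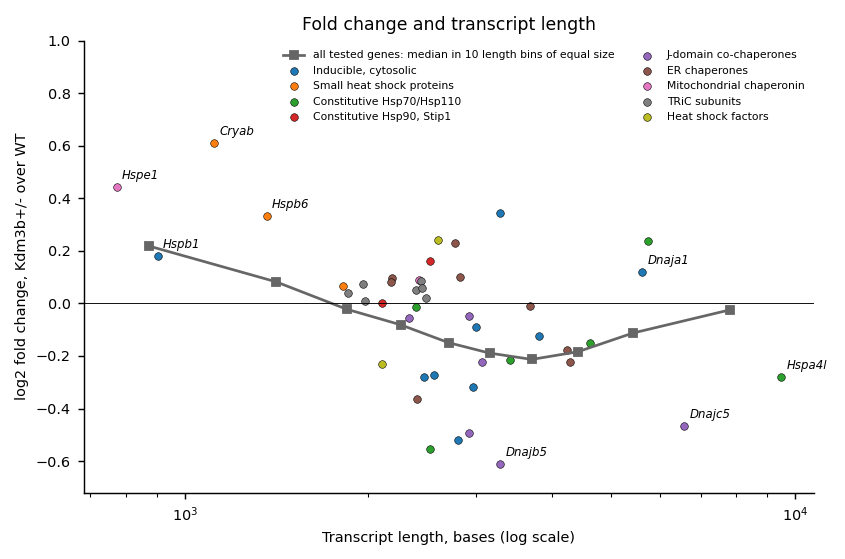
Log2 fold change (*Kdm3b*+/- over WT) against transcript length in bases (log axis) for the 45 chaperone genes, coloured by role group, with the line joining the medians of all tested genes in 10 length bins of equal size. The short *Cryab*, *Hspe1* and *Hspb6* lie at the upper left, at 0.61, 0.44 and 0.33, and the line falls from short to middle lengths.

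Sequence shared with transcripts of other genes limits some of these values. In 9 of the 45 genes, between 14.8% and 62.8% of the 100-base windows of the transcript also occur unchanged in annotated transcripts of other genes. Some of these other genes are named as pseudogenes. The 9 genes are *Hspa8*, *Hspb1*, *Hspa1b*, *Hspa1a*, *Hsp90aa1*, *Dnajb6*, *Hspd1*, *Hspe1* and *Dnaja1*, in falling order of the share, and their TPM depends on how reads with several matches were assigned. *Cryab*, *Dnajb5*, *Dnajc5* and *Hspa2* share no such window with another gene. Similar but not identical sequence, and copies outside annotated transcripts, were not searched.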

How the data were processed

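RNA-seq was made from GCE tissue of 2 WT and 2 *Kdm3b*+/- mice, and samples were grouped by the genotype in the labels, which name the tissue as cerebellum. The authors trimmed low-quality bases, aligned reads with STAR and estimated abundance with StringTie (both also in the submitters' processing notes). The versions, the build and the annotation are not given in the sources used here. The chromosome matched that of RefSeq for GRCm38 in 99.6% of genes, and the start lay within 1000 bases of the RefSeq start in 90.7%. The deposited TPM had been normalized by the authors for gene length and then to sum to 1000000 in a library, the deposited FPKM for gene length and mapped fragments, and the deposited coverage is the mean depth over exons. Entries with the same identifier were summed. Aligned bases came from the ratio of coverage to FPKM. Depth per gene is not known, since counts were not recovered from transcript estimates.

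Genes with a mean of at least 1 TPM (13652) were tested on log2(TPM + 1) with limma 3.58.1 (lmFit, eBayes with trend) in R 4.3.3, with genotype as the only term and Benjamini-Hochberg adjustment over all of them. Fold changes are on that scale and understate the change of low genes. DEX genes had to pass an adjusted p of 0.05 and differ by more than 1.2 times. The authors instead used tximport and DESeq2, at the same adjusted p and a stated log2 fold change above 1.2. The scripts were tested on simulated data, in which the spread was capped below that of the most variable genes here. Robust fits used statmod 1.5.0. Transcript length, GC content and shared windows came from GENCODE transcripts of GRCm38, and figures from Matplotlib 3.10.9. The alternatives were a pseudocount of 0.1, FPKM, other minimum levels and normalizations, the highest entry per gene, other eBayes settings, blocking by replicate number, a loess correction for length and GC content, and each library left out.

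Values per library are given for genes with an unadjusted p under 0.05, the 5 largest changes in each direction, the 3 highest levels and lead genes of each role group. For the other lists, genes with an unadjusted p under 0.05 are named, at most 5 per list. Genes outside this rule (*Stip1*, *Hspa12a*, *Hspa4*, *Hspa4l*, *Hspb8*, *Cct6a* and the rest that are named) were chosen after their values were seen. The genes, lists and tests were chosen with earlier results of these data known. Since nothing says that mice were processed separately, p-values measure the spread between these 4 libraries.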

Additional observations from a re-analysis of the deposited data

How the results depend on the processing

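None of the 45 genes was DEX in the limma fit or in 14 of its 18 alternatives with a count. With a minimum of 5 TPM 1 was (*Cryab*), with robust eBayes 1 (*Cryab*), and with libraries left out in turn between 0 and 1 (*Dnajb6* without *Kdm3b*+/- mouse 2). With the replicate number as a block 2 were (*Cryab*, adjusted p = 0.0148, and *Hspa2*, adjusted p = 0.0467). Same-numbered mice are different animals, no source says that a number marks a shared batch, and with 2 pairs the correlation of their deviations (0.121) does not settle it, so the block was not used as the main design. Over all genes, 63 DEX genes became 39 with FPKM, 1 without a filter, 37 without trend, 600 with the block, 165 with the block and the correction for length and GC content, and between 21 and 188 with 1 library left out. The median log2 fold change of the set was 0.07 with FPKM and 0.0758 with median-ratio scaling, which raised the median of all genes by 0.065, and 27 in place of 23 of the 45 genes were then higher. That scaling also gave log2 ratios of summed TPM of 0.271 for the inducible group, 0.121 for TRiC, 0.303 for the mitochondrial chaperonin and 0.59 for the small heat shock proteins, against 0.198, 0.0488, 0.231 and 0.518. With libraries left out, those ratios ran from 0.171 to 0.293 for the mitochondrial chaperonin and from -0.539 to -0.051 for the J-domain group, whose ends came without *Kdm3b*+/- mouse 2 and mouse 1. The looser heat shock element raised the share of promoters from 10.8% to 37.8%.

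For 31 of the 45 genes, the direction held under all 16 alternative fits (14 for *Hspa12b*, which 2 fits did not test). The other 14, each with a log2 fold change of at most 0.236 in size, reversed in some. With FPKM and with median-ratio scaling, these were *Hspa8* (0.0517 and 0.0597), *Dnaja2* (0.0168 and 0.0248), *Dnajc7* (0.00823 and 0.0162) and *Hspa5* (0.0552 and 0.0635). With quantile normalization, they were *Stip1* (-0.0352), *Cct3* (-0.019) and *Cct5* (-0.0016). With the correction for length and GC content, alone or with the block, they were *Hspb1* (-0.0499), *Dnajb1* (0.037), *Hspa8* (0.0334), *Hspa5* (0.042), *Cct3* (-0.0281) and *Cct5* (-0.00677). With libraries left out in turn, the log2 fold changes ran from -0.0747 to 0.0474 for *Hspa8*, from -0.037 to 0.51 for *Hspa12a*, from -0.0151 to 0.0205 for *Stip1*, from -0.255 to 0.159 for *Dnaja2*, from -0.114 to 0.000283 for *Dnajc7*, from -0.217 to 0.198 for *Hspa5*, from -0.154 to 0.347 for *Calr*, from -0.0552 to 0.203 for *Cct2*, from -0.0702 to 0.0854 for *Cct3*, from -0.008 to 0.0869 for *Cct5*, from -0.00684 to 0.108 for *Cct8* and from -0.00456 to 0.119 for *Tcp1*. The causes were not tested. With 2 mice per group the p-values rest on a spread shared across genes, and the depth behind single genes is not known.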
